A study of Homo sapiens with 22 samples.

Results

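The RNAs described here are GAS5, ZFAS1, SNHG1, SNHG12, SNHG5 and SNHG8, 6 long non-coding RNAs whose introns carry small nucleolar RNAs (snoRNAs). They were chosen by gene symbol, as 6 of 25244 genes listed for one experiment and 6 of 25791 listed for the other. All 6 lay above a mean of 1 CPM (read counts scaled to library size) in both experiments, as did 24715 and 25252 of all genes. RNA came from Ls174T, a human colon carcinoma line whose growth depends on the transcription factor MYC, and was sequenced as poly-A RNA in 16 libraries, 2 for each of 8 groups. In the HUWE1 experiment, the groups were shHUWE1 cells in BI8622, shHUWE1 cells in DMSO, control vector cells in BI8622 and control vector cells in DMSO. The shHUWE1 cells carried a lentiviral pLKO vector with an shRNA against the ubiquitin ligase HUWE1, were selected with puromycin and keep part of their HUWE1, while control cells carried the empty pLKO vector. In the MIZ1 experiment all groups carried pIND-shMiz1, a doxycycline-inducible shRNA against MIZ1 (gene ZBTB17), a factor that turns MYC-bound promoters towards repression, and 4 days of 1 µg/ml doxycycline (+Dox) or none (-Dox) were combined with BI8622 or DMSO. The methods mention a FACS sorting step for MIZ1-depleted cells. BI8622, an inhibitor of HUWE1, was given at 20 µM for 16 h. No cells with a control vector were exposed to doxycycline in these groups, so an effect of doxycycline itself cannot be told apart from that of the shRNA.

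A host RNA of this kind is transcribed by RNA polymerase II and spliced. The snoRNAs are cut out of the debranched introns and bound by snoRNP proteins, after which they guide methylation or pseudouridylation of ribosomal RNA. The spliced exons that remain are mostly exported, engage ribosomes on short reading frames and are degraded by nonsense-mediated decay, so that their steady level reflects both transcription and decay. Many hosts start at a C followed by a run of pyrimidines, the 5′TOP motif, which they share with mRNAs for ribosomal proteins and through which translation follows mTOR signalling. GAS5, which takes its name from growth arrest, accumulates in cells that stop growing, when translation and with it the decay of the spliced RNA slow down.

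The hosts differ in what they carry. Within the span of the genes, RefSeq annotates 11 snoRNA genes in GAS5, 9 in SNHG1, 4 in SNHG12, 3 in ZFAS1, 2 in SNHG5 and 1 in SNHG8, 30 in all. Of these 30, the deposited tables list 2 for HUWE1 knockdown and 1 for MIZ1 knockdown, so the snoRNAs themselves are hardly measured here. SNORD78, a C/D box snoRNA of GAS5, had a level of 1.07 to 1.56 CPM over the groups of the HUWE1 experiment and 0.837 to 1.84 CPM over those of the MIZ1 experiment. SNORD12, carried by ZFAS1, had 0.541 to 1.44 CPM in the HUWE1 experiment.

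On the GRCh37 build, GENCODE places GAS5 (ENSG00000234741) on chromosome 1 at 173827697 to 173838020 on the minus strand, with 12 exons in its canonical transcript. ZFAS1 (ENSG00000177410) lies on chromosome 20 at 47894715 to 47916137 on the plus strand with 5 exons. SNHG1 (ENSG00000255717) lies on chromosome 11 at 62619450 to 62623425 on the minus strand with 11 exons. SNHG12 (ENSG00000197989) lies on chromosome 1 at 28905050 to 28909644 on the minus strand with 6 exons. SNHG5 (ENSG00000203875) lies on chromosome 6 at 86360209 to 86388650 on the minus strand with 6 exons, and SNHG8 (ENSG00000269893) on chromosome 4 at 119199858 to 119206471 on the plus strand with 3 exons.

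The start sites are shown because the 5′TOP motif is read there. Each line gives 30 bases before and 30 bases from the commonest start site among the GENCODE transcripts of the gene, read 5′ to 3′ on the strand of the gene, with the longest run of pyrimidines that opens with C within 10 bases of the start in capitals.
GAS5, GRCh37 chr1:173837098-173837157, minus strand: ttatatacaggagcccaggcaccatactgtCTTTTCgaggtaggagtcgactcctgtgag
ZFAS1, GRCh37 chr20:47895149-47895208, plus strand: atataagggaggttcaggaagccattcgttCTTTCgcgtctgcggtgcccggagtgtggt
SNHG1, GRCh37 chr11:62623328-62623387, minus strand: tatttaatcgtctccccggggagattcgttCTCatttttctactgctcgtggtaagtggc
SNHG12, GRCh37 chr1:28908356-28908415, minus strand: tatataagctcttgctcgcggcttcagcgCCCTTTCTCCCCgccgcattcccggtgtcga
SNHG5, GRCh37 chr6:86388437-86388496, minus strand: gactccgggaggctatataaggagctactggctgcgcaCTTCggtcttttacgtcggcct
SNHG8, GRCh37 chr4:119199883-119199942, plus strand: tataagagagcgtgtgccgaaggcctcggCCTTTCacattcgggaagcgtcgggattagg

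In GAS5, ZFAS1 and SNHG1 the run opened at the annotated start itself, in SNHG12 and SNHG8 it opened 1 base before it, and in SNHG5 it opened 8 bases after it. The start shown is that of 50 of 91 transcripts of GAS5 and 61 of 89 of SNHG5, but of 5 of 14 of ZFAS1, 25 of 80 of SNHG1, 4 of 19 of SNHG12 and 5 of 15 of SNHG8. The run was 12 bases long in SNHG12, 6 in GAS5 and in SNHG8, 5 in ZFAS1, 4 in SNHG5 and 3 in SNHG1. A run of 5 or more bases was thus found in 4 of the 6 hosts and not in SNHG5 or SNHG1. Of 38825 start sites of protein-coding and lncRNA genes searched in the same way, 30.2% had one. The 6 were picked as hosts of the 5′TOP class, so these shares are no independent support for the motif in them. In windows of 250 bases before and 50 bases from the start, the palindrome CACGTG, the letters of the canonical MYC binding site, was found once in GAS5 and in no other window of the 6. It was found in 7% of all windows and in 8.72% of those of genes listed in the HUWE1 experiment. CACGCG or its reverse complement CGCGTG was found once in SNHG1 and 2 times in SNHG12. The share was 10% of all windows and 14.1% of those of genes listed in the HUWE1 experiment. These are matches of letters, and binding at these sites was not analysed here.

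The values that can be compared are levels of whole groups. The deposited tables give, for each pair of groups, a mean level over the libraries of both on the log2 CPM scale. It was taken as the log2 of an average CPM, and from several such means the level of each group was solved. CPM is the share of reads that a gene takes, so less RNA of a gene and more RNA of all others cannot be told apart. Levels of single libraries cannot be had from these means, so no group has an SD, no difference has a test, and whether neighbours in an order of levels differ beyond their spread could not be checked. In the MIZ1 experiment 1 mean is redundant, and the levels met it with a median gap of 0.128% of the level over all genes and of 0.0351% to 0.371% for the 6 hosts. In the HUWE1 experiment no mean is redundant. Differences are given on the log2 scale, a positive one meaning a higher level in the group named first, and are set beside the same difference over all genes above 1 CPM.

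The levels of the targeted genes went with the labels. HUWE1 had 176 CPM in shHUWE1 cells against 460 CPM in control vector cells in BI8622, and 218 CPM against 420 CPM in DMSO. ZBTB17 had 11.4 CPM in +Dox cells against 22.6 CPM in -Dox cells in BI8622, and 11.0 CPM against 15.7 CPM in DMSO. Colon epithelium markers were present, all 8 of them, with a summed level of 1713 to 2994 CPM over the 8 groups. Of 5 fibroblast markers only COL1A1 was listed in either experiment (3.47 to 6.23 CPM). The leukocyte markers listed, 3 of 4, summed to 7.33 to 10.8 CPM, and those of endothelium, 1 or 2 of 3, to 1.25 to 8.62 CPM. The epithelial sum was higher in BI8622 than in DMSO in all 4 kinds of cells. By 1.3-fold, 3 of the 8 markers were higher in shHUWE1 cells (14.1% of all genes). In control vector (19.4%), +Dox (21.5%) and -Dox cells (24.6%), 4 markers each were higher. CDX2, a factor of intestinal identity, went the other way, with log2 differences of -0.24 in shHUWE1 cells, -0.47 in control vector cells, -1.03 in +Dox cells and -1.02 in -Dox cells. The part of these markers in the host levels was not tested.

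**Figure D1:**
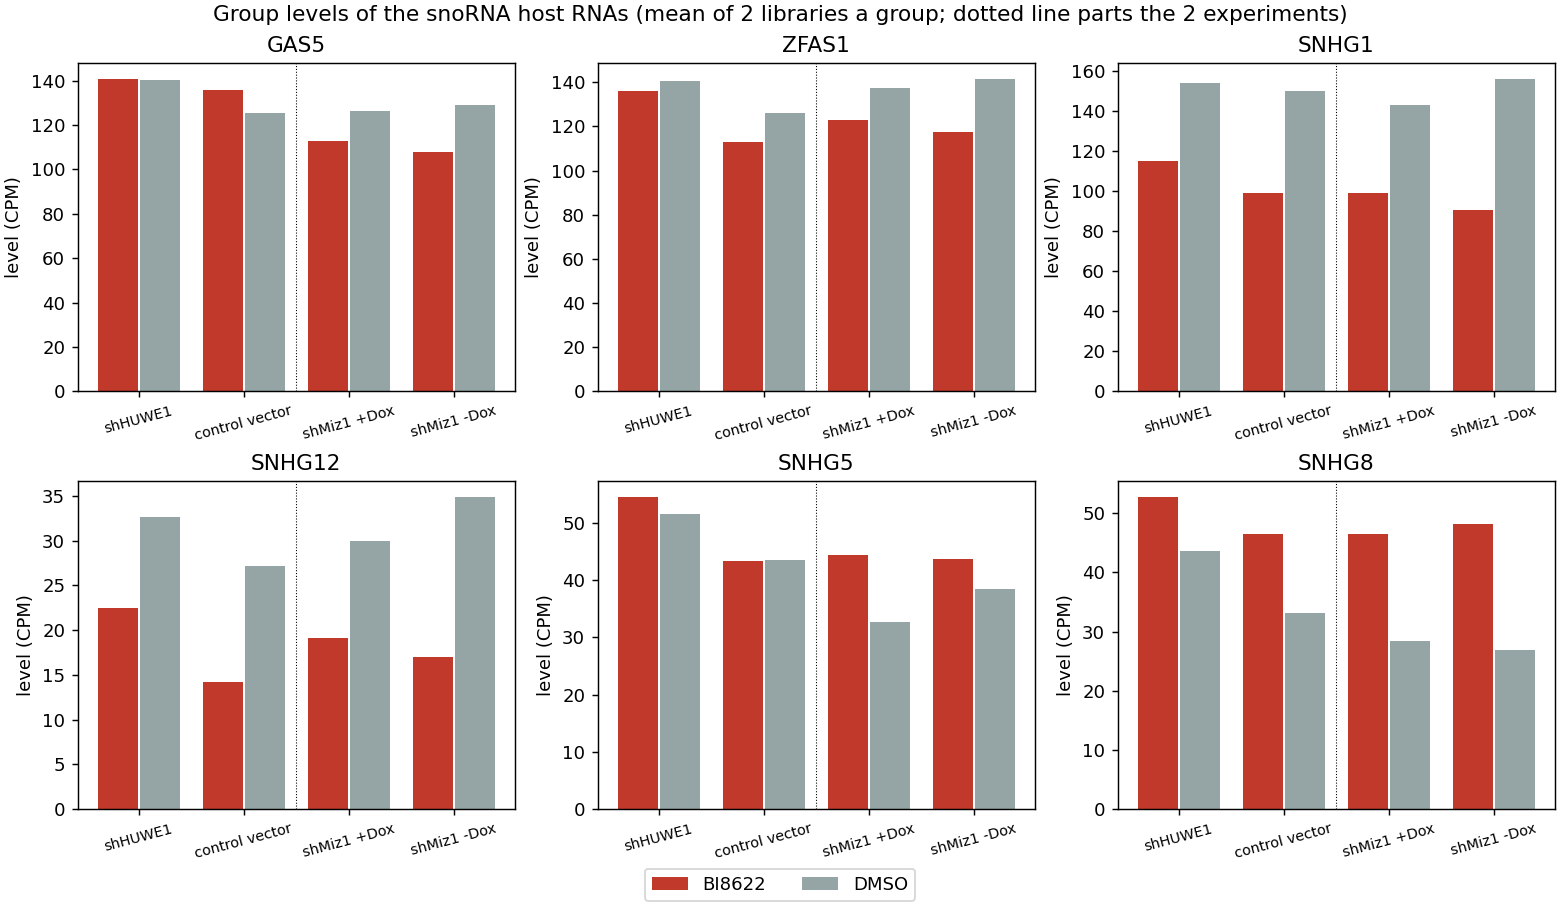
Level in CPM (vertical axis) of each host RNA in the 8 groups, with BI8622 in red and DMSO in grey for each kind of cell; bars are levels of groups of 2 libraries, with no error available, and each panel has its own scale. SNHG1 and SNHG12 had their 4 lowest levels in BI8622, SNHG8 had its 4 highest there, and GAS5 and ZFAS1 stayed between 107.9 and 142 CPM in all groups.

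In BI8622 the hosts differed in direction. SNHG12 and SNHG1 were at lower levels in BI8622 than in DMSO in all 4 kinds of cells, SNHG8 was at a higher level in all 4, and GAS5, ZFAS1 and SNHG5 lay near their DMSO levels in most. The mean log2 difference over the 4 kinds of cells was -0.79 ± 0.24 for SNHG12, -0.58 ± 0.15 for SNHG1 and 0.58 ± 0.25 for SNHG8 (SD over the 4 kinds of cells, which are not replicates of each other). It was 0.18 ± 0.19 for SNHG5, -0.07 ± 0.17 for GAS5 and -0.16 ± 0.09 for ZFAS1. The median SD of this kind over all genes was 0.185.

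SNHG12, a host of 4 snoRNAs, was the furthest of the 6 from its DMSO level in shHUWE1, control vector and -Dox cells, and second to SNHG8 in +Dox cells. It had 22.5 CPM in BI8622 against 32.7 CPM in DMSO in shHUWE1 cells, and 14.3 CPM against 27.2 CPM in control vector cells. In the MIZ1 experiment it had 19.2 CPM in BI8622 against 29.98 CPM in DMSO in +Dox cells, and 17.0 CPM against 34.9 CPM in -Dox cells. Every level in BI8622 was thus below every level in DMSO, also across the experiments. The log2 differences were -0.54, -0.93, -0.65 and -1.04, and 8.31%, 1.21%, 9.03% and 3.03% of all genes had a lower value in the same comparison.

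SNHG1, which carries SNORD22 and SNORD25 to SNORD31, showed the same order. Its level was 114.9 CPM in BI8622 against 153.8 CPM in DMSO in shHUWE1 cells, and 98.9 CPM against 150.0 CPM in control vector cells. It was 99.02 CPM in BI8622 against 142.8 CPM in DMSO in +Dox cells, and 90.6 CPM against 156.2 CPM in -Dox cells. The levels in DMSO lay close together and those in BI8622 all lay below them. The log2 differences were -0.42, -0.60, -0.53 and -0.79, with 13.3%, 5.42%, 13.1% and 6.57% of all genes lower.

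SNHG8, a host with a single snoRNA, went the other way. It had 52.8 CPM in BI8622 against 43.6 CPM in DMSO in shHUWE1 cells, and 46.4 CPM against 33.1 CPM in control vector cells. In +Dox cells it had 46.5 CPM in BI8622 against 28.4 CPM in DMSO, and in -Dox cells 48.2 CPM against 26.8 CPM. The levels in BI8622 lay above all levels in DMSO, the nearest DMSO group being that of shHUWE1 cells. The log2 differences were 0.28, 0.49, 0.71 and 0.84, and 19.95%, 14.05%, 9.15% and 8.26% of all genes had a higher value.

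The other hosts had small differences. SNHG5, a host of 2 snoRNAs, had 54.5 CPM in BI8622 against 51.5 CPM in DMSO in shHUWE1 cells and 43.3 CPM against 43.5 CPM in control vector cells. In +Dox cells it had 44.4 CPM in BI8622 against 32.7 CPM in DMSO, a log2 difference of 0.44, and in -Dox cells 43.6 CPM against 38.4 CPM. That in +Dox cells was a ratio of 1.36, and no other difference of SNHG5, ZFAS1 or GAS5 in BI8622 reached 1.3-fold.

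ZFAS1, the host of 3 SNORD12 family members, had 135.9 CPM in BI8622 against 140.6 CPM in DMSO in shHUWE1 cells and 112.8 CPM against 126.0 CPM in control vector cells. It had 122.9 CPM against 137.3 CPM in +Dox cells and 117.4 CPM against 141.6 CPM in -Dox cells. Its log2 differences, from -0.27 to -0.05, were all negative, as were those of 28.4% of the 24112 genes above 1 CPM in both experiments in all 4 kinds of cells. GAS5 had 140.8 CPM in BI8622 against 140.4 CPM in DMSO in shHUWE1 cells and 135.7 CPM against 125.3 CPM in control vector cells. It had 112.9 CPM against 126.3 CPM in +Dox cells and 107.9 CPM against 128.8 CPM in -Dox cells. GAS5 was therefore level or higher in BI8622 in the HUWE1 experiment, with log2 differences of 0.00 and 0.12, and lower in the MIZ1 experiment, with -0.16 and -0.26.

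**Figure D2:**
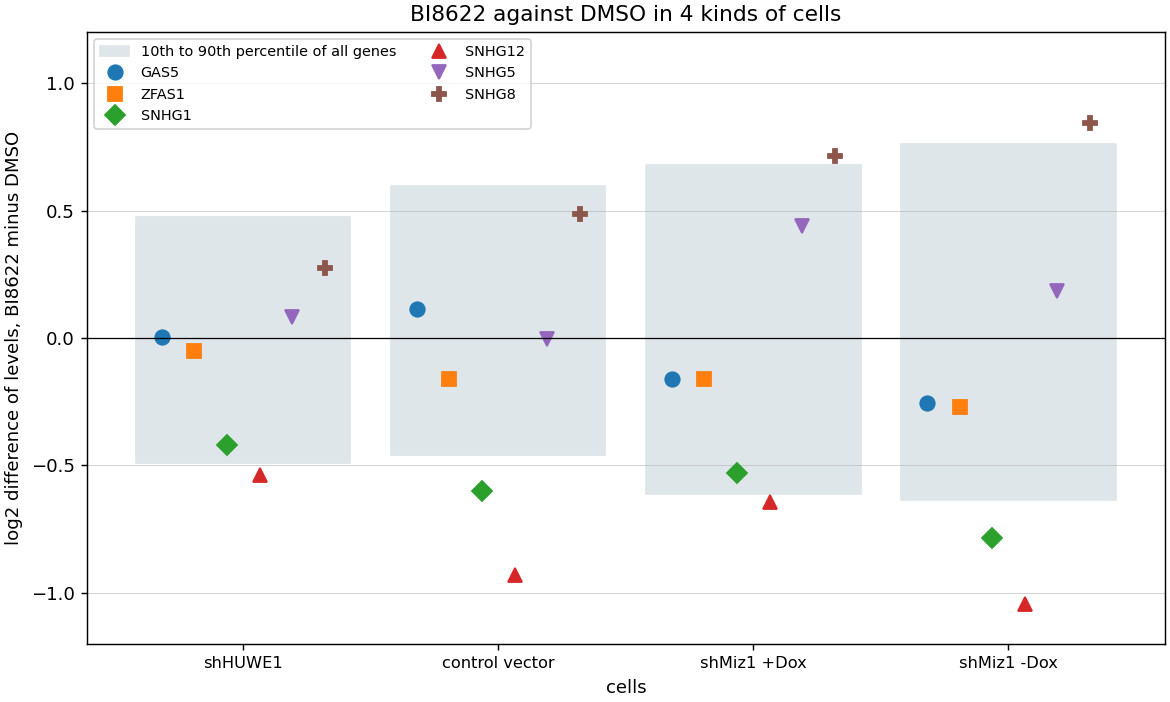
Log2 difference of levels, BI8622 minus DMSO (vertical axis), of the 6 host RNAs in 4 kinds of cells; grey bands span the 10th to the 90th percentile of all genes above 1 CPM. SNHG12 lay below the band in all 4, from -1.04 to -0.54, and SNHG8 lay above it in +Dox and -Dox cells (0.71 and 0.84).

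Differences of this size were not rare among all genes. At 1.3-fold, SNHG1 and SNHG12 were lower in BI8622 in each of the 4 comparisons, which is 2 of 6 hosts, beside 15.7% of all genes in shHUWE1 cells, 13.6% in control vector cells, 20.0% in +Dox cells and 20.1% in -Dox cells. The hosts higher by 1.3-fold numbered 0 in shHUWE1 cells, 1 in control vector cells (SNHG8), 2 in +Dox cells (SNHG8 and SNHG5) and 1 in -Dox cells (SNHG8), beside 14.1%, 19.4%, 21.5% and 24.6% of all genes. SNHG8 reached 1.21-fold in shHUWE1 cells. Of the 24112 genes above 1 CPM in both experiments, 6.54% were lower by 1.3-fold in all 4 comparisons, as SNHG1 and SNHG12 were, and 7.58% were higher. At 1.5-fold, SNHG1 and SNHG12 no longer passed in shHUWE1 cells, nor SNHG1 in +Dox cells, nor SNHG8 in control vector cells, nor SNHG5 in +Dox cells. The 4 comparisons use separate libraries and share no group. An exact permutation test that flips the signs of 4 differences could reach no two-sided p below 0.125, and none was run.

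The design asks whether the response to BI8622 needs its target, and whether it needs MIZ1. For SNHG12, the log2 difference of -0.54 in shHUWE1 cells and that of -0.93 in control vector cells were 0.39 apart, and 6.10% of all genes had a higher value. In the MIZ1 experiment its log2 differences of -0.65 in +Dox cells and -1.04 in -Dox cells were 0.40 apart, a value that 6.22% of genes exceeded. SNHG1 had differences of responses of 0.18 and 0.26 in the same 2 contrasts, and SNHG8 of -0.21 and -0.13. The response was thus smaller in size with either knockdown for these 3 hosts. It was also smaller for GAS5 (-0.11 and 0.09) and ZFAS1 (0.11 in both) and larger for SNHG5 (0.09 and 0.26), which makes 5 of 6 hosts in each experiment, beside 54.6% of all genes for HUWE1 knockdown and 55.9% for MIZ1 knockdown. For GAS5 and ZFAS1 these are differences between small values. None of these differences of responses was tested. The response without knockdown enters each of them, and the shares over all genes are not matched for its size. In shHUWE1 cells, which keep part of their HUWE1, SNHG1 and SNHG12 were still lower in BI8622 by 1.34-fold and 1.45-fold.

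Knockdown of HUWE1 was next compared with the control vector. All 6 hosts had higher levels in shHUWE1 cells, both in BI8622 and in DMSO, with log2 differences of 0.05 (GAS5) to 0.66 (SNHG12) in BI8622 and of 0.04 (SNHG1) to 0.40 (SNHG8) in DMSO. Of all genes, 29.4% were higher in shHUWE1 cells in both. Other snoRNA host genes also had medians above 0, with genes on both sides of 0. The medians were 0.16 in BI8622 and 0.10 in DMSO for 36 protein-coding hosts, and 0.10 and 0.03 for 12 further hosts. Those of all genes were -0.03 and 0.02. SNHG12 in BI8622, with 22.5 CPM in shHUWE1 cells against 14.3 CPM in control vector cells, stood furthest out, and 1.46% of all genes had a higher value. SNHG5 differed by 0.33 in BI8622 and 0.24 in DMSO, SNHG8 by 0.18 and 0.40, ZFAS1 by 0.27 and 0.16, GAS5 by 0.05 and 0.16, and SNHG1 by 0.22 and 0.04. These comparisons use the same groups as those of BI8622 in the HUWE1 experiment, so a low level in control vector cells in BI8622 enters both.

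At 1.3-fold, 1 host (SNHG12) was higher in shHUWE1 cells in BI8622 and 0 were lower, beside 5.87% and 8.21% of all genes. In DMSO 1 host (SNHG8) was higher and 0 were lower, beside 9.50% and 5.36% of all genes. SNHG8 in DMSO, with 43.6 CPM in shHUWE1 cells against 33.1 CPM in control vector cells, stood at a ratio of 1.32 and did not pass at 1.5-fold. With the limit raised to 5 CPM, closer to the levels of the hosts, the shares of genes higher in shHUWE1 cells were 2.87% in BI8622 and 4.51% in DMSO. SNHG12 and SNHG1 were lower in BI8622 than in DMSO, and they were not lower in shHUWE1 cells than in control vector cells. HUWE1 was only partly lost in shHUWE1 cells, and a stable knockdown is not alike in duration to 16 h of BI8622. What sets these contrasts apart was not tested. The shHUWE1 cells also had higher MUC2, a goblet cell mucin, with a log2 difference of 2.29 in BI8622 and 2.71 in DMSO, and its part in the host levels was not tested.

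The hosts lay closer together between +Dox and -Dox cells, with no log2 difference beyond -0.23 or 0.18. In BI8622, SNHG12 had 19.2 CPM in +Dox cells against 17.0 CPM in -Dox cells and SNHG1 had 99.02 CPM against 90.6 CPM, log2 differences of 0.18 and 0.13. The other hosts differed by -0.05 (SNHG8) to 0.07 (GAS5 and ZFAS1). In DMSO the order was turned round for SNHG12, with 29.98 CPM in +Dox cells against 34.9 CPM in -Dox cells, and for SNHG1, with 142.8 CPM against 156.2 CPM, log2 differences of -0.22 and -0.13. SNHG5 differed by -0.23, ZFAS1 by -0.04, GAS5 by -0.03 and SNHG8 by 0.08. These comparisons use the same groups as those of BI8622 in the MIZ1 experiment. The turned order of SNHG12 and SNHG1 is therefore their smaller response in +Dox cells seen from the other side, not a separate observation. No host reached 1.3-fold either way, beside 4.94% of all genes higher and 6.07% lower in BI8622, and 6.46% higher and 4.69% lower in DMSO.

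**Figure D3:**
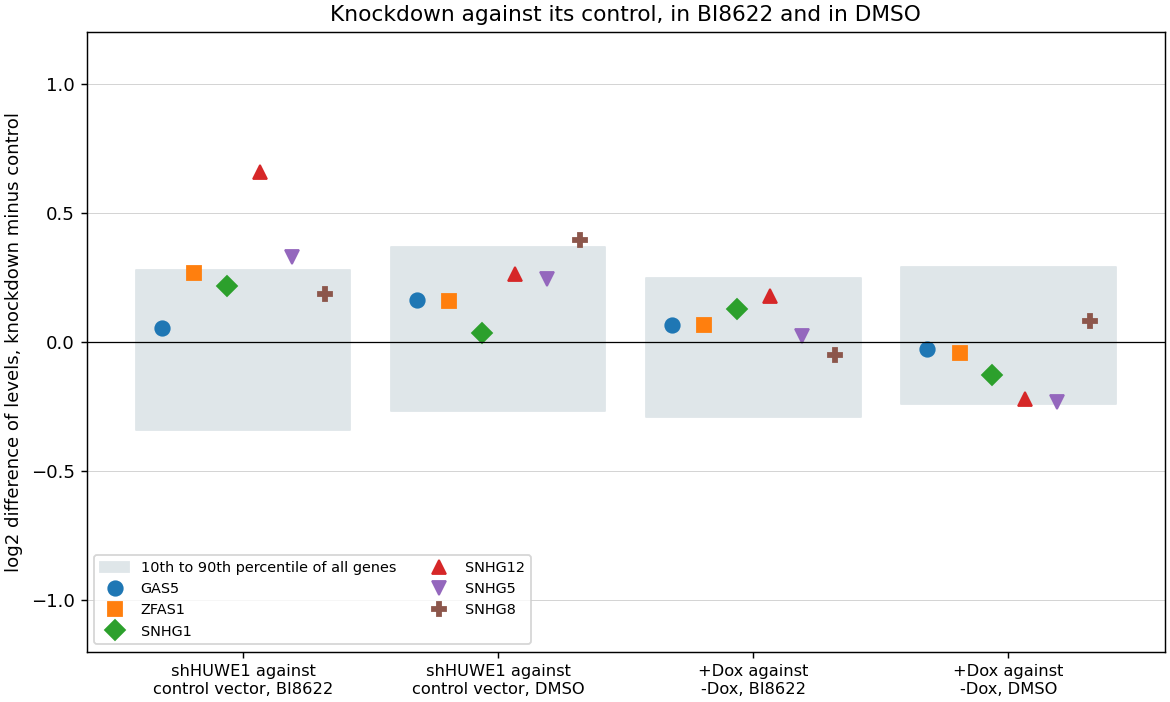
Log2 difference of levels, knockdown minus its control (vertical axis), for shHUWE1 against control vector cells and +Dox against -Dox cells, each in BI8622 and in DMSO; grey bands span the 10th to the 90th percentile of all genes above 1 CPM. All 6 hosts lay above 0 for shHUWE1 in both media, with SNHG12 in BI8622 at 0.66, and all lay between -0.23 and 0.18 for doxycycline.

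The genes for the proteins that bind snoRNAs were read beside the hosts, at the level of their RNA. All 8 snoRNP genes listed, which encode the C/D box proteins FBL, NOP56, NOP58 and NHP2L1 and the H/ACA box proteins DKC1, NHP2, NOP10 and GAR1, were at lower levels in each of the 4 comparisons. By 1.3-fold all 8 were lower in shHUWE1 (15.7% of all genes), control vector (13.6%) and +Dox cells (20.0%) and 7 in -Dox cells (20.1%). Their median log2 difference was -0.50 in shHUWE1 cells, -0.53 in control vector cells, -0.67 in +Dox cells and -0.71 in -Dox cells, where the median of all genes was -0.03, 0.02, 0.01 and 0.04. NOP56, a core protein of C/D box particles that itself hosts snoRNAs, was the lowest of the list in shHUWE1 cells (-0.71), control vector cells (-0.81) and -Dox cells (-1.32). DKC1, the pseudouridine synthase, was the lowest in +Dox cells (-1.22). Both are known MYC-activated genes, and a part of MYC in these differences was not tested. NOP10 was the least affected in control vector cells (-0.43) and -Dox cells (-0.35), and FBL, the methyltransferase, in shHUWE1 cells (-0.41) and +Dox cells (-0.47). In shHUWE1 against control vector cells, 0 of the 8 were lower by 1.3-fold in BI8622 (8.21% of all genes) and 1 in DMSO (5.36%), GAR1 at -0.44.

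Other host genes were mixed, but more of them were lower than higher by 1.3-fold except in shHUWE1 cells. Of 13 further hosts listed, 12 were in the tables, among them TAF1D, which also encodes a subunit of the RNA polymerase I factor SL1. In BI8622, 1 was lower and 1 higher by 1.3-fold in shHUWE1 cells, and 3 and 0 in control vector cells. In +Dox and in -Dox cells 5 were lower and 1 higher. Of all genes, 15.7%, 13.6%, 20.0% and 20.1% were lower in the same order, and 14.1%, 19.4%, 21.5% and 24.6% higher. The medians of the 12 were -0.03, -0.11, -0.13 and -0.28. SNHG9 was the lowest in every one of these comparisons. It had 2.60 CPM in BI8622 against 5.91 CPM in DMSO in shHUWE1 cells, 2.76 CPM against 7.69 CPM in control vector cells, 2.35 CPM against 4.51 CPM in +Dox cells and 2.41 CPM against 4.53 CPM in -Dox cells. SNHG11 was the highest in shHUWE1 cells (0.49) and control vector cells (0.23), and SNHG7 in +Dox cells (0.66) and -Dox cells (0.60).

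Among protein-coding hosts, too, more were lower than higher by 1.3-fold. Of 36, those lower by 1.3-fold in BI8622 numbered 4 in shHUWE1 cells, 6 in control vector cells, 8 in +Dox cells and 8 in -Dox cells, and those higher numbered 1, 1, 2 and 2. As shares of the list, the lower ones lie near the shares of all genes given above. The higher ones lie below the shares of all genes, which were 14.1%, 19.4%, 21.5% and 24.6%. The medians of the 36 were -0.05, -0.10, 0.04 and 0.03. The chaperone gene HSPA8 was the lowest in shHUWE1 cells (-0.74), control vector cells (-1.18) and -Dox cells (-1.51), and DKC1 in +Dox cells (-1.22). EIF4A2, a translation initiation helicase, was the highest in all 4, from 0.54 in shHUWE1 cells to 0.64 in +Dox cells. NOP56 and DKC1 stand in both this list and that of the snoRNP proteins.

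**Figure D4:**
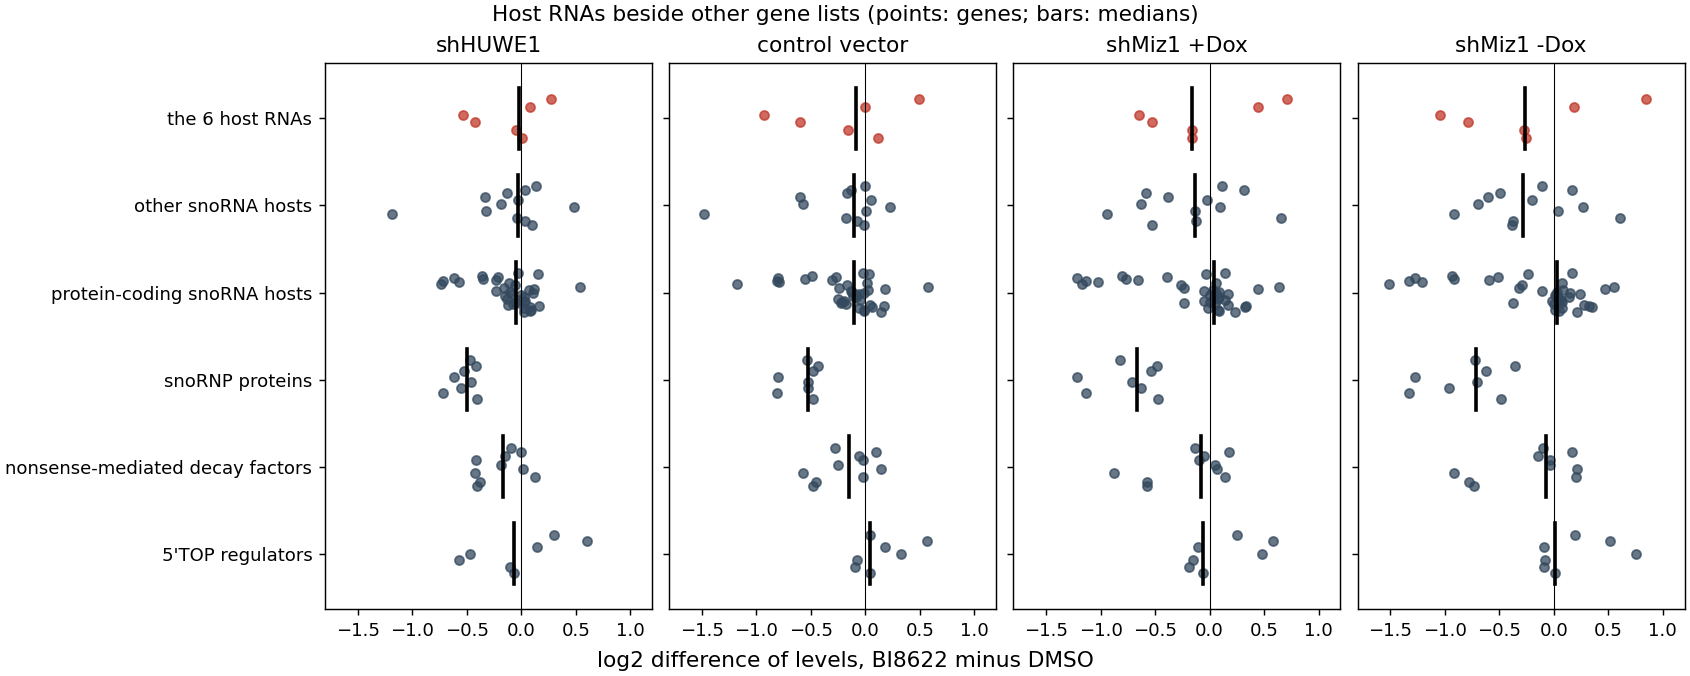
Log2 difference of levels, BI8622 minus DMSO (horizontal axis), of the 6 host RNAs (red) and of the genes of 5 lists (dark) in 4 kinds of cells; each point is a gene and each black bar the median of its list. The hosts lie on both sides of 0, while all 8 snoRNP genes lie between -1.32 and -0.35.

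Genes that act on such hosts were also read. Of 10 nonsense-mediated decay factors, 3 were lower by 1.3-fold in BI8622 in each of the 4 kinds of cells and 0 were higher. Over all genes, the shares were 13.6% to 20.1% lower and 14.1% to 24.6% higher. The 3 were UPF1, UPF2 and UPF3B in control vector, +Dox and -Dox cells, and UPF1, UPF3B and SMG6 in shHUWE1 cells. Their medians were -0.17 in shHUWE1 cells, -0.15 in control vector cells, -0.07 in +Dox cells and -0.07 in -Dox cells. UPF3B, which links the decay machinery to exon junctions, was the lowest in all 4, with -0.42 in shHUWE1 cells, -0.57 in control vector cells, -0.87 in +Dox cells and -0.91 in -Dox cells. The highest were UPF3A in shHUWE1 cells (0.13), SMG1 in control vector cells (0.14) and -Dox cells (0.21), and SMG8 in +Dox cells (0.17).

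Of 7 regulators of 5′TOP RNAs, 1 was higher and 2 were lower by 1.3-fold in shHUWE1 cells, and 1 and 0 in control vector cells. In +Dox and in -Dox cells 2 were higher and 0 lower. The shares of all genes were 14.1% to 24.6% higher and 13.6% to 20.1% lower. The medians of the 7 were -0.06, 0.05, -0.06 and 0.01 in the same order. TIA1, a protein that binds 5′TOP mRNAs under stress, was the highest in shHUWE1 cells (0.61), control vector cells (0.56) and +Dox cells (0.58), and EIF4EBP1, the translation repressor controlled by mTOR, in -Dox cells (0.75). RPTOR, an mTORC1 subunit, was the lowest in shHUWE1 cells (-0.57), and MTOR in control vector cells (-0.10), +Dox cells (-0.19) and -Dox cells (-0.09). All list counts are descriptions, with no test.

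Genes on the opposite strand overlap 4 of the 6 hosts, and no source used here states whether reads were counted by strand. The library kits named in the paper are not described there as keeping the strand. Reads from the opposite strand may thus enter the host levels, which was not tested. Among them, ZBTB37 (14.1 to 22.5 CPM over the 8 groups) and GAS5-AS1 (6.20 to 10.1 CPM) overlap GAS5. ZNFX1 (38.5 to 51.5 CPM) overlaps ZFAS1. TRNAU1AP (14.1 to 17.3 CPM) overlaps SNHG12, whose own levels were 14.3 to 34.9 CPM, and PRSS12 (0.837 to 2.98 CPM) overlaps SNHG8. SNHG1 and SNHG5 have no annotated overlap of this kind in GENCODE on GRCh37.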

How the data were processed

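Ls174T cells were profiled by RNA sequencing in 16 libraries. The 6 ChIP libraries were not analysed here. Alignment by the authors was to hg19 with Bowtie 0.12.8, and edgeR gave the authors' comparison of each pair of groups. The submitters' processing notes also name CASAVA and FastQC. The version of that tool, the gene counting, the kit of each library and the depth were not given in the sources that were read, and nothing states that libraries of 1 group were separate cultures. The deposited tables hold, for each pair of groups, a log2 fold change, a mean log2 CPM, a p-value and an adjusted p-value. The fold changes and p-values are the authors' own comparisons and were not used. The mean log2 CPM values, deposited by the authors, were taken as the log2 of an average CPM over the libraries of both groups of a pair. They were taken out of the log, and the level of each group was solved from 4 means in the HUWE1 experiment and by least squares from 5 in the MIZ1 experiment (Python 3.11.15, numpy 2.4.6, pandas 2.3.3, matplotlib 3.10.9). The differences therefore describe the contrasts that the authors also compared. Rows with a repeated gene identifier were dropped, which left 25244 of 25251 and 25791 of 25798. The solution was run on simulated data whose pair means were exact averages of both groups. That run could not check whether the deposited means are such averages. The prior count behind the deposited means adds an offset estimated at 0.234 and 0.240 CPM per gene.

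Comparisons were BI8622 against DMSO in 4 kinds of cells, shHUWE1 against control vector and +Dox against -Dox, over genes with a mean of at least 1 CPM. Other routes through the means, other filters, centring on the median of all genes, subtraction of the offset and folds of 1.2 and 1.5 were tried.

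The members and lists were chosen with earlier results of these data known. All 6 hosts are named in every group, list genes where they are the largest or smallest of their list in a comparison, and HUWE1 and ZBTB17 as a check of the labels. MUC2 and CDX2 are named as the largest and smallest of the colon epithelium markers, and UPF1, UPF2 and SMG6 were named after their values were seen. The fold of 1.3 and the motif searches were chosen after values were seen. That fold was raised once after its first counts were seen. Start sites and overlaps come from GENCODE 44 mapped to GRCh37, chosen over RefSeq promoter entries after both were viewed, because the RefSeq start of GAS5 lies upstream of the start most transcripts share. The snoRNA genes come from RefSeq on a later build and are given by name only. Some of the genes that overlap the hosts are not reported here.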

Additional observations from a re-analysis of the deposited data

How the results depend on the processing

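The 192 member differences recomputed under other routes, centring on the median of all genes or subtraction of the offset moved by less than 0.1 on the log2 scale, and 0 were reversed. The largest change was 0.0116 under another route, 0.0381 under centring and 0.0114 under subtraction. A reversal was counted only where the main difference was at least 1.3-fold, and changes this small could not have reversed one. Offset subtraction and the folds of 1.2 and 1.5 were chosen after seeing the data. At a fold of 1.2, 1 host (SNHG8) was higher in BI8622 in shHUWE1 cells, beside 20.9% of all genes, and hosts higher in shHUWE1 than in control vector cells numbered 3 in BI8622, beside 10.9%, and 2 in DMSO, beside 16.3%. At a fold of 1.5, 0 hosts were higher in BI8622 in control vector cells, beside 10.4%, 0 were lower in BI8622 in shHUWE1 cells, beside 6.78%, and in +Dox cells 1 was higher (SNHG8), beside 12.8%, and 1 lower (SNHG12), beside 10.9%. At that fold 0 hosts were higher in shHUWE1 than in control vector cells in DMSO, beside 3.99%. With a filter at 5 CPM, the shares of all genes past 1.3-fold in the doxycycline comparisons were 1.40% higher and 2.21% lower in BI8622 and 2.16% higher and 1.19% lower in DMSO. No other route exists for the HUWE1 experiment, whose 4 means fix the levels exactly. No paired analysis was possible because the tables hold no values per library. For the same reason the planned count tests, the other normalization and leaving out single libraries were not run. Depth is unknown, so counting error could not be given.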
